A study of Drosophila melanogaster with 7 samples.

Results

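Oxidative phosphorylation is carried out by 5 protein complexes of the inner mitochondrial membrane. Complexes I (NADH dehydrogenase) and II (succinate dehydrogenase) feed electrons to ubiquinone, complex III (the cytochrome bc1 complex) passes them to cytochrome c, and complex IV (cytochrome c oxidase) reduces oxygen. Complex V (ATP synthase) uses the resulting proton gradient to make ATP. All but complex II combine subunits encoded in the nucleus, which are translated in the cytosol and imported, with core subunits transcribed and translated inside the mitochondrion from its own circular genome. In the insect brain, glia are known for glycolysis that supplies neurons, and neurons for a strong dependence on respiration.

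The genes were those whose symbol in the gene lists starts with ND-, UQCR-, COX, ATPsyn or Sdh, or with mt:ND, mt:Co, mt:Cyt or mt:ATPase, and that held at least 200 unique molecular identifiers (UMIs, 1 per captured RNA molecule) summed over all cells. Of 17493 genes in the files, 94 had such a symbol and 75 reached the threshold. These comprised 62 nuclear genes, of which 33 belonged to complex I, 5 to complex II, 6 to complex III, 7 to complex IV and 11 to complex V. The other 13 were all mitochondrially encoded, with 7 in complex I, 1 in complex III, 3 in complex IV and 2 in complex V. The lowest totals inside the threshold were 719 UMIs for ND-MNLL and 764 for mt:ND4L, and the highest outside were 167 for ATPsynepsilonL, 70 for ND-B8 and 67 for COX4L. Subunits with symbols of another form, such as blw, RFeSP, Cyt-c1, cype and levy, were not covered, and Sdhaf3, an assembly factor of complex II, was caught by its symbol. The nuclear genes held 2.64% and the mitochondrial genes 1.85% of 95655567 UMIs.

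The brains were those of late first instar wild type larvae of the strain Canton-S (Wild type CS in the labels), without any transgene, dissociated with collagenase and profiled by droplet sequencing of RNA 3′ ends. Larvae of the normal condition stayed on cornmeal food, and those of the starvation condition spent 4 h without food. The labels place the transfer at 11 h and the methods at 12 h after larval hatching, and dissection followed at 16 h per the methods. Brains of many larvae were pooled for each dissociation, so no value belongs to a single animal. There were 4 normal and 3 starvation libraries, which stem from 3 normal experiments (Normal A, B and C) and 2 starvation experiments (Starvation A and B). Normal B and Starvation A had 2 libraries each.

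Several properties of the libraries bear on every value below. Libraries held between 5359444 and 25232852 UMIs, and the median per cell was lowest in Normal A (2228) and highest in Normal C (13486). Of 9353 cells, 8696 were kept (4349 normal and 4347 starvation). A limit of 20% on UMIs from mitochondrial genes removed 320 cells, 134 of them from Normal A, and this limit caps the mitochondrial levels. Altogether 664 barcodes occurred in more than 1 library, and 832 kept cells of Normal B (36.0%) and 7.37% of those of Starvation A shared their barcode with a cell of another library that had more than 3 times their UMIs, so the conditions are not fully separate. Most NPCs of these experiments were such cells, and leaving them out reduced the NPCs from 266 to 83 in Normal B and from 202 to 54 in Starvation A. The 2 mitochondrial ribosomal RNAs made up 10808 CPM (counts per 1000000 counts) in neurons of Normal C and 30853 to 35963 CPM in neurons of the other 4 experiments.

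Cells were grouped by markers into neurons, neural progenitor cells (NPCs, here with the optic lobe epithelium), glia, undifferentiated neurons (UNs) and muscle. A further 1256 kept cells lay in clusters that took no name and were left out of the class comparisons. Among them, cluster 37 (55 cells), led by wrapper, scored highest for glial markers. Clusters 20 (177 cells) and 21 (163 cells) scored highest for NPC markers. The classes glia and NPCs thus lack these cells. Each name means "like" that type, since the clusters were rebuilt from the counts. None of the 75 genes was among the 2000 variable genes that defined the clusters. All 11 neuronal, 12 NPC, 14 glial and 7 UN markers had counts in their class in every experiment. Neurons also had counts of all NPC, glial and UN markers in every experiment, so such counts do not tell the classes apart. The glial list summed to 12852 to 29426 CPM in glia and to 388 to 2653 CPM in neurons. The NPC list summed to 1840 to 2341 CPM in NPCs outside the optic lobe epithelium and to 59.4 to 145 CPM in neurons. Levels below are UMIs per 1000000 UMIs of the class (CPM). A class entered with at least 20 cells in an experiment, which left out Normal C for UNs (3 cells) and muscle (1 cell). Classes came from clusters of the same cells, so the comparisons between classes are descriptions, and the count of experiments that show a direction stands in for a test.

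Among the classes named above, glia had the highest and UNs the lowest summed level of the nuclear genes. In neurons the nuclear sum was 31779 CPM in Normal A, 29047 in Normal B, 38896 in Normal C, 26204 in Starvation A and 27581 in Starvation B (30701 ± 5025, SD, n = 5 experiments of both conditions). In glia it was 41523, 38032, 40900, 34352 and 33991 CPM in the same order (37760 ± 3532, n = 5). Glia exceeded neurons of the same experiment in all 5.

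In NPCs the nuclear sum was 28904, 22000, 28466, 20863 and 17799 CPM (23606 ± 4887, n = 5), below neurons in each experiment. In UNs it was 22050 CPM in Normal A, 12389 in Normal B, 12318 in Starvation A and 10850 in Starvation B (14402 ± 5148, n = 4). These UN values lay below those of neurons, NPCs and glia in each of the 4 experiments. Some unnamed clusters came close to them. Cluster 10, led by CG17265 and esg, had 18400 CPM in Normal B and 11340 in Starvation A, the latter below UNs. Cluster 22, led by opa and cas, had 14919 and 13763 CPM in these experiments. Clusters 20 and 21, highest for NPC markers, had 14368 and 17128 CPM in Starvation B. Both lay below NPCs in each experiment with enough cells. Muscle, with 28436 ± 6299 CPM (n = 4), overlapped with neurons.

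The mitochondrially encoded genes did not follow the same order. Their sum was 26152, 15352, 19337, 18105 and 21124 CPM in neurons (20014 ± 4023, n = 5) and 28315, 17249, 15044 and 18877 CPM in UNs (19871 ± 5844, n = 4), so UNs lay above neurons in Normal A and B and below them in Starvation A and B. NPCs were at 18796 ± 6566 CPM (n = 5) and overlapped with both. Glia were again highest, with 34335, 20672, 26246, 26865 and 37752 CPM (29174 ± 6826, n = 5).

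**Figure D1:**
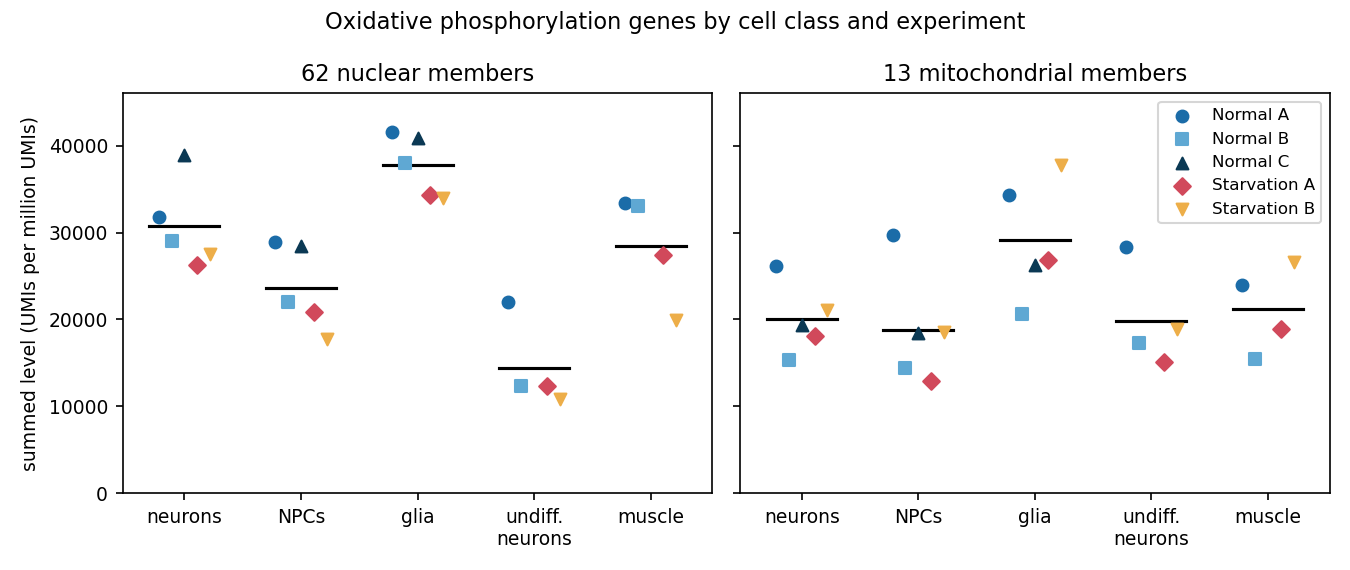
Summed level (UMIs per 1000000 UMIs of the class) of the 62 nuclear and the 13 mitochondrial genes in 5 cell classes. Each symbol is 1 experiment and the black line is the mean over experiments. The nuclear sum in undifferentiated neurons, 10850 to 22050, lies below that of neurons, 26204 to 38896, whereas the mitochondrial sums of these classes overlap.

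The ratio of the nuclear to the mitochondrial sum was lower in UNs than in neurons. It was 1.57 ± 0.36 in neurons (1.22 to 2.01, n = 5), 1.32 in NPCs, 1.36 in glia, 1.43 in muscle (0.75 to 2.14), and 0.72 ± 0.11 in UNs (0.57 to 0.82, n = 4). The ranges of neurons and UNs, each taken as a whole class, did not overlap. Such a low ratio was not particular to UNs, since muscle of Starvation B (0.75) and hemocytes of Starvation A (0.63) also lay within the UN range. The neuronal cluster led by Gadd45 and Arc1 (cluster 0) also had a nuclear sum below its mitochondrial one. These sums were 25506 and 32907 CPM in Normal A and 23695 and 23852 in Normal B. In Starvation A they were 15769 and 22518 CPM, and in Starvation B 23822 and 30510. UN cells were shallow, with medians of 1939 to 3727 UMIs per cell against 2637 to 11268 in neurons. Mitochondrial ribosomal RNA was higher in UNs, with 40961 to 53372 CPM, than in neurons. The part of depth and of ribosomal RNA in the result was not tested. The neuronal marker list summed to 4393 to 5439 CPM in UNs and to 17565 to 20746 CPM in neurons. Which cells make up the class differed, since the UNs of Normal A came mostly from a cluster led by heat shock genes and those of Normal B from another.

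In UNs the lower level ran through all nuclear complexes. For each gene, the log2 ratio to neurons of the same experiment was averaged over experiments, with 1 CPM added and genes of at least 10 CPM on average across the compared values. Of 61 nuclear genes with such a ratio, 58 (95.1%) were lower in UNs in all 4 experiments, against 30.3% of all genes compared. The median ratio was -1.11, against 0.06 for all genes. The medians by complex were -1.07 for complex I, with 31 of 32 genes lower in every experiment, -0.61 for complex II, -1.20 for complex III, -1.22 for complex IV and -1.05 for complex V. All 6, 7 and 11 nuclear genes of complexes III, IV and V were lower in every experiment.

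SdhB, the iron-sulfur subunit of succinate dehydrogenase, was the named nuclear gene closest to its neuronal level in UNs. It stood at 222, 242, 217 and 186 CPM in UNs of Normal A, Normal B, Starvation A and Starvation B, and at 240, 234, 229 and 209 CPM in neurons of these experiments, a mean log2 ratio of -0.08 ± 0.09. COX8, a small subunit of cytochrome c oxidase, was at 641, 343, 325 and 216 CPM in UNs and at 985, 963, 772 and 850 CPM in neurons (mean log2 ratio -1.33 ± 0.56). The catalytic subunit of ATP synthase, ATPsynbeta, was at 977, 881, 673 and 448 CPM in UNs and at 1254, 1297, 1246 and 977 CPM in neurons (-0.73 ± 0.34). For COX8 the UN and neuronal levels did not overlap, and for ATPsynbeta they met at 977 CPM.

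Few mitochondrial genes of UNs were lower throughout. Of 12 with a ratio, 2 were lower than in neurons in all 4 experiments, mt:ND6 (-0.80) and mt:ND2 (-0.59), both core subunits of complex I, a share (16.7%) below the 30.3% of all genes, and the median was -0.23. The other complex I genes compared, mt:ND1, mt:ND3, mt:ND4 and mt:ND5, had mixed signs over experiments. The cytochrome oxidase genes mt:CoI (-0.18), mt:CoII (-0.01) and mt:CoIII (0.08), mt:Cyt-b of complex III (0.15) and mt:ATPase6 of complex V (0.10) did too. mt:CoI was at 4587, 2620, 2473 and 2530 CPM in UNs and at 4354, 2593, 3183 and 3406 CPM in neurons of the same experiments.

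**Figure D2:**
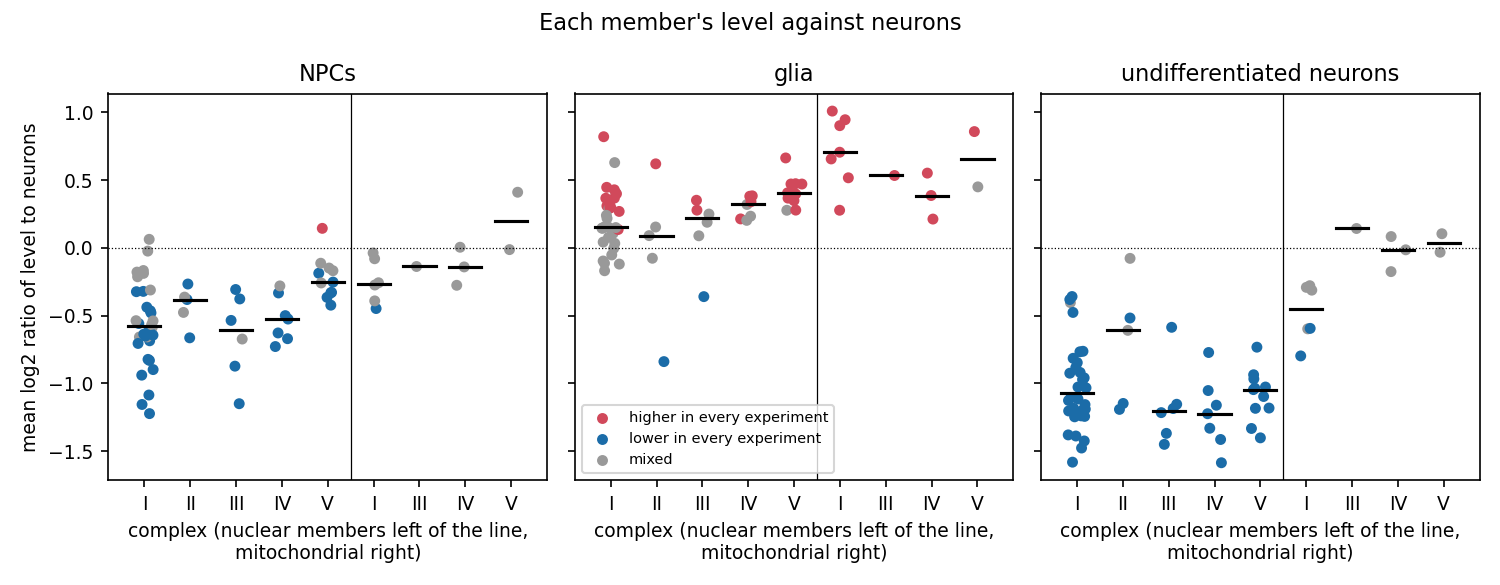
Mean log2 ratio of each gene's level to that in neurons of the same experiment, by complex, with nuclear genes left and mitochondrial genes right of the line in each panel. Red points were higher and blue points lower than neurons in every experiment, gray points mixed, and black lines mark medians. In undifferentiated neurons the nuclear medians run from -0.61 to -1.22, and in glia all medians are above 0.

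In NPCs the nuclear genes of complexes I, III and IV were lower than in neurons, and those of ATP synthase less so. Of 61 nuclear genes, 39 (63.9%) were lower in all 5 experiments, against 41% of all genes compared, and 1 was higher. The median ratio was -0.48, against -0.30 for all genes. Medians were -0.58 for complex I, -0.38 for complex II, -0.60 for complex III, -0.53 for complex IV and -0.25 for complex V. Of the 12 mitochondrial genes compared, 1 was lower in every experiment, and the median was -0.14. Without the cells of recurring barcodes 0 of 13 were lower and 1 was higher in every experiment, with a median of -0.07. Of all genes 40.2% were then lower and 24.8% higher.

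The lowest ratios in NPCs belonged to ND-23, an iron-sulfur core subunit of complex I (-1.22 ± 0.52), ND-B14, an accessory subunit of complex I (-1.16 ± 0.32), and UQCR-11, a small subunit of complex III (-1.15 ± 0.49). UQCR-11 was at 599, 407, 473, 325 and 185 CPM in NPCs and at 885, 901, 879, 781 and 684 CPM in neurons, with no overlap. ND-23 was at 106, 90.0, 135, 81.2 and 53.6 CPM in NPCs and at 190, 183, 239, 217 and 224 CPM in neurons, again with no overlap.

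The gene that was higher in NPCs in all 5 experiments was ATPsynC, the c subunit of the rotating membrane ring of ATP synthase. It was at 3834, 2967, 3435, 2744 and 2248 CPM in NPCs and at 3412, 2610, 3271, 2272 and 2213 CPM in neurons, a mean log2 ratio of 0.14 ± 0.10. The difference was thus small beside the range over experiments. Without the cells of recurring barcodes no nuclear gene was higher in NPCs in every experiment. Then 42 of 61 (68.9%) were lower, against 40.2% of all genes. ND-SGDH, an accessory subunit (0.06 ± 0.14), and ND-24, an iron-sulfur core subunit of complex I (-0.02 ± 0.49), came next and had mixed signs. NPCs of Normal A comprised 31 cells, and the 29 of them outside the optic lobe epithelium carried 3001 CPM of neuronal and 2609 CPM of glial markers, against 521 to 1236 and 254 to 749 CPM in such cells of the other experiments, and the part of these cells in the ratios was not tested. The median nuclear ratio in NPCs was -0.20 in Normal A and -0.39 to -0.80 in the other experiments.

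In glia as a class both genomes showed higher levels than in neurons. The nuclear part did not hold in the glial cluster with Gat and alrm among its leading genes (cluster 33). Its nuclear sum was 31860 CPM in Normal A and 24312 in Starvation A, against 31779 and 26204 in neurons. Its mitochondrial sum, 36437 and 23551 CPM, lay above neurons. The nuclear sums of glial clusters 18, 23, 34 and 39 lay above neurons in each experiment with enough cells. Of 62 nuclear genes, 29 (46.8%) were higher in all 5 experiments, against 20.2% of all genes compared, and 2 (3.23%) were lower in all 5, against 47.3%. The nuclear median was 0.27, against -0.51 for all genes. The nuclear medians were highest for ATP synthase (0.40, with 10 of 11 genes higher in every experiment) and cytochrome oxidase (0.32, with 4 of 7), and lower for complexes III (0.22), I (0.15, with 12 of 33) and II (0.09). Without the cells of recurring barcodes the counts of higher genes were also 29 nuclear and 12 mitochondrial.

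ATPsynC was at 4990, 4150, 4520, 3878 and 4015 CPM in glia, a mean log2 ratio to neurons of 0.66 ± 0.16, and the highest neuronal level, 3412 CPM, lay below the lowest glial one. ND-B14.5A, an accessory subunit of complex I, was at 337, 320, 312, 275 and 243 CPM in glia and at 179, 150, 216, 147 and 152 CPM in neurons (0.82 ± 0.22), also without overlap. ND-MNLL ranked next (0.63 ± 0.58) but had at most 20.7 CPM and mixed signs.

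The nuclear genes lower in glia in every experiment were SdhA and UQCR-11. SdhA, the flavoprotein subunit of succinate dehydrogenase, was at 115, 39.0, 86.9, 50.3 and 39.7 CPM in glia and at 127, 119, 99.5, 116 and 85.3 CPM in neurons, a ratio of -0.84 ± 0.64. The levels overlapped through Normal A and C. SdhB (-0.08 ± 0.09) and SdhC (0.15 ± 0.23), the membrane anchor, had mixed signs, so the measured subunits of complex II did not move together in glia. UQCR-11 was at 796, 729, 663, 568 and 492 CPM in glia (-0.36 ± 0.13).

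Of the 13 mitochondrial genes, 12 (92.3%) were higher in glia than in neurons in all 5 experiments, and the exception, mt:ATPase8, had 50.3 CPM at most. The median ratio was 0.55. The highest ratios were those of the complex I genes mt:ND3 (1.01 ± 0.29), mt:ND6 (0.94 ± 0.40) and mt:ND4L (0.90 ± 0.51, at 13.5 CPM on average) and of mt:ATPase6 (0.86 ± 0.26). mt:ND2 (0.70), mt:ND5 (0.66), mt:CoII (0.55), mt:Cyt-b (0.54) and mt:ND4 (0.52) followed, and mt:CoI (0.39), mt:ND1 (0.28) and mt:CoIII (0.21) were nearest to neurons.

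mt:ND6 was at 788, 495, 706, 770 and 1494 CPM in glia and at 473, 355, 390, 349 and 521 CPM in neurons. mt:ATPase6 was at 6420, 3940, 5316, 6083 and 8969 CPM in glia and at 4280, 2299, 3301, 3002 and 3854 CPM in neurons. Starvation B had the highest glial value of both genes, and for each the ranges of the classes overlapped through Normal B alone. The glial marker list was at 12852 CPM in glia of Starvation B and at 29426 in those of Normal A, so the glia of the experiments were not of equal make-up.

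**Figure D3:**
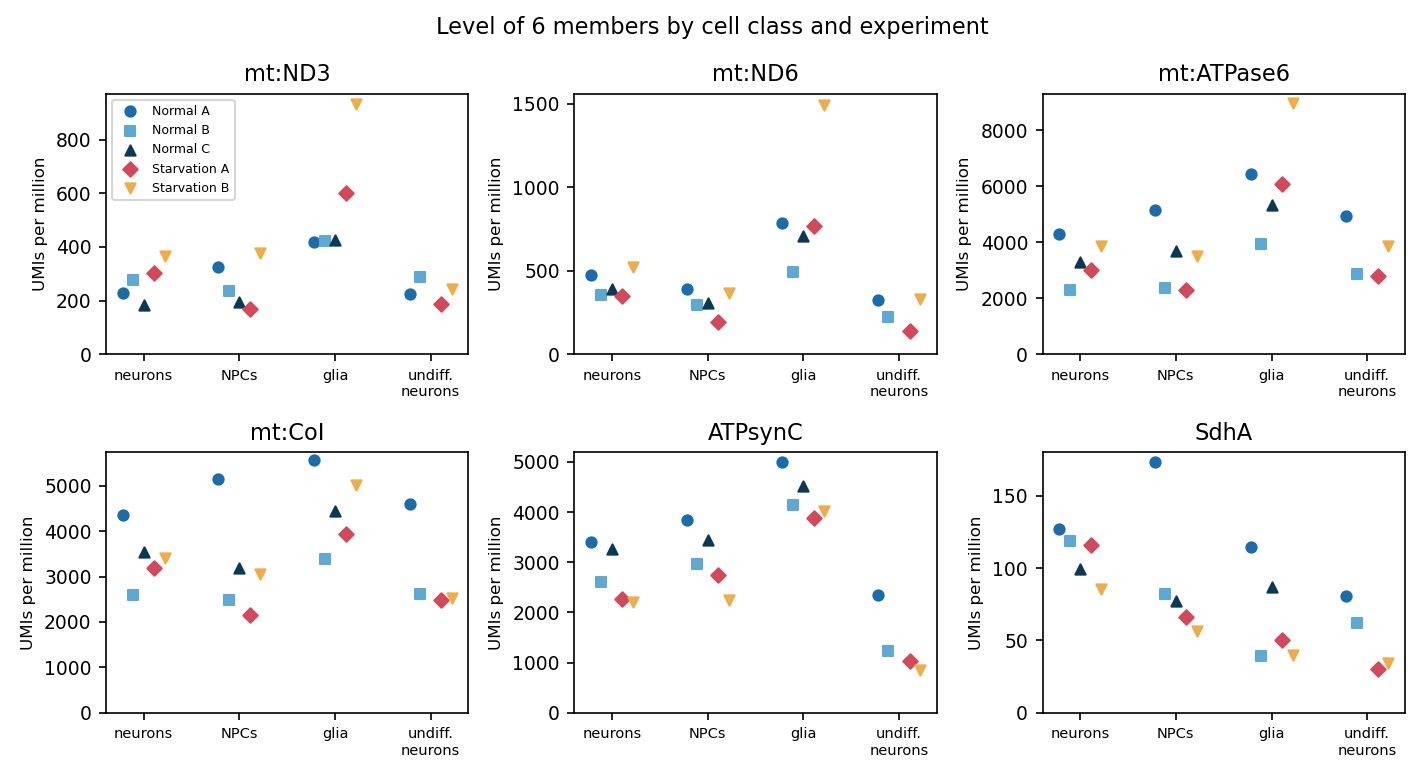
Level (UMIs per 1000000 UMIs of the class) of 6 genes in 4 cell classes, 1 symbol per experiment. mt:ND3, mt:ND6 and mt:ATPase6 reach 934, 1494 and 8969 in glia of Starvation B, ATPsynC is lowest in undifferentiated neurons (854 to 2338), and SdhA is lower in glia than in neurons of the same experiment.

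Neighbouring genes limit some of these values. On the mitochondrial genome mt:ATPase8 overlaps mt:ATPase6 and mt:ND4L overlaps mt:ND4 on the same strand in the annotation used, mt:ATPase6 also overlaps mt:CoIII, and the pairs are known to share transcripts, so reads cannot be split between them with certainty. The same holds for exons of ND-MLRQ, ND-MWFE, ND-15, ND-MNLL, UQCR-Q, COX6B and ATPsynC, each of which shares exon sequence with another gene on its strand.

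Among neurons the levels varied by cluster. The cells formed 16 neuronal clusters, of which 15 had at least 20 cells in Starvation A, the experiment with most cells. There the nuclear sum ran from 15769 CPM in cluster 0 to 37369 CPM in cluster 27, and the mitochondrial sum from 11203 CPM in cluster 25, led by the neuropeptide genes SIFa, Ms and Dsk, to 23594 CPM in cluster 27. Cluster 27, led by CG14274 and twit, had enough cells in that experiment only.

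The cluster led by Gad1 and VGAT, genes of GABA synthesis and loading (cluster 1), had a nuclear sum of 37757 CPM in Normal B, 44587 in Normal C, 32036 in Starvation A and 34602 in Starvation B. The cluster led by unc-4, with the cholinergic gene ChAT among its leading genes (cluster 8), had 47870 CPM in Normal C, 32338 in Starvation A and 34706 in Starvation B. The cluster led by the neuropeptide gene AstC (cluster 4) had 24329 CPM in Normal B, 29477 in Normal C, 20024 in Starvation A and 21665 in Starvation B. In every experiment in which they could be compared, clusters 1 and 8 lay above cluster 4.

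Cluster 0, led by the stress and activity genes Gadd45, Arc1 and kay, combined a low nuclear sum with a high mitochondrial one, most clearly in Normal A and B. Its nuclear sum was 25506 CPM in Normal A, 23695 in Normal B, 15769 in Starvation A and 23822 in Starvation B, and its mitochondrial sum 32907, 23852, 22518 and 30510 CPM. In Normal A and B the nuclear sum was the lowest and the mitochondrial sum the highest of the 5 and 11 neuronal clusters compared. In Starvation A the nuclear sum was the lowest, but cluster 27 had a higher mitochondrial sum (23594 CPM). In Starvation B the mitochondrial sum was the highest, but clusters 4, 7 and 9 had lower nuclear sums, down to 21665 CPM in cluster 4. Its cells had a median of 2851 UMIs, against 8486 in cluster 4 and 9049 in cluster 1, and the part of depth in the difference was not tested.

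**Figure D4:**
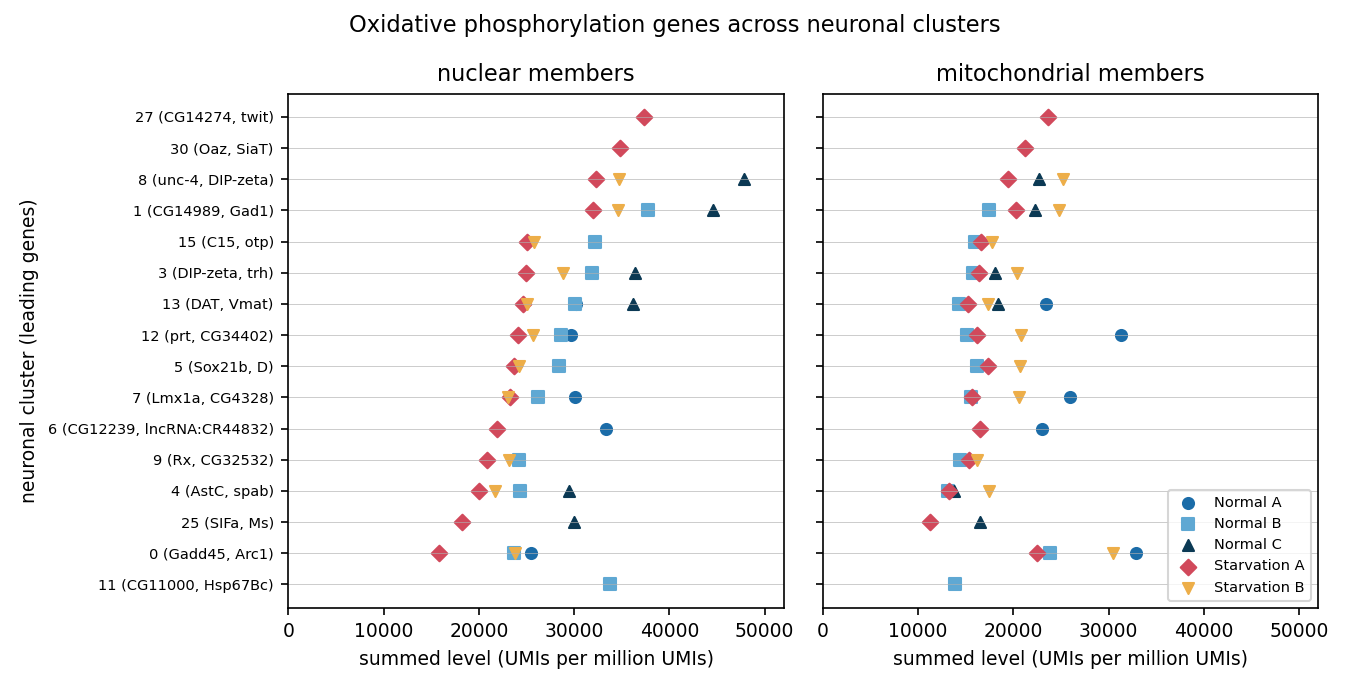
Summed level (UMIs per 1000000 UMIs of the cluster) of the nuclear and mitochondrial genes in 16 neuronal clusters, named by number and 2 leading genes. Each symbol is 1 experiment with at least 20 cells of the cluster, and rows are ordered by the nuclear level in Starvation A, from 15769 in cluster 0 to 37369 in cluster 27, with cluster 11, seen in Normal B alone, at the bottom.

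Whether feeding state changed these levels was tested with counts summed per class and experiment, 3 normal against 2 starvation experiments (2 against 2 in UNs), by edgeR's quasi-likelihood test. No gene of the 75 passed an adjusted p of 0.05 in all cells together, in neurons, NPCs, glia or UNs. DESeq2 also called 0 of them in each of these 5 fits. Its calls over all genes were 217 of 9120 in all cells, 99 of 8089 in neurons and 27 of 6955 in NPCs. In glia they were 71 of 3655 and in UNs 9 of 5238. Over all genes tested, edgeR calls made up 0% in all cells, 0% in neurons and 0.302% in NPCs (21 of 6955 genes). They made up 0.0274% in glia (1 of 3655) and 0% in UNs, so edgeR made few calls anywhere. At an unadjusted p under 0.05 stood 1 of the 75 genes in all cells, 1 in neurons, 1 in NPCs, 5 in glia and 3 in UNs. The share of all genes under this p is not given, here or below, so no excess can be read from such counts.

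The 95% intervals of single genes were wide. In neurons the nuclear log2 changes (starvation against normal) ran from -0.56 to 0.38 with a median of -0.19, and 9 of 62 were above 0. The median width of their intervals was 1.25 on the log2 scale. ATPsynC was at 3412, 2610 and 3271 CPM in neurons of the normal and at 2272 and 2213 CPM in those of the starvation experiments, without overlap, yet its change did not pass the test. In neurons 23 of 62 nuclear genes (37.1%) had every starvation experiment below every normal one, against 13.5% of all genes. Without cells of recurring barcodes 18 (29.0%) did, again against 13.5% of all genes. Without Normal C, the deepest library, the median nuclear change in neurons was 0.029.

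The clusters that made up the neurons differed between experiments. Cluster 0, low in nuclear genes, gave 305 of 797 neurons in Normal A, 31 of 1036 in Normal B and none of 520 in Normal C. It gave 283 of 2164 in Starvation A and 53 of 524 in Starvation B. Cluster 6 had 284 of its 325 cells in Normal A and cluster 11 had 254 of its 274 in Normal B. In a comparison added after the data were seen, 13 neuronal clusters had at least 20 cells in an experiment of each condition, and in 12 of them the nuclear sum of every starvation experiment lay below that of every normal one, with cluster 0 the exception. The mitochondrial sum did so in 2 of the 13 clusters and lay above in 3. The clusters share the same 5 experiments, so these counts add no replicates. Only cluster 13 had enough cells in all 5. On the normal side clusters 5, 9 and 15 rested on Normal B alone, 8 and 25 on Normal C alone and 6 on Normal A alone. On the starvation side clusters 6 and 25 rested on Starvation A alone.

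The nuclear sum lay lower in both starvation experiments than in all normal ones in neurons, NPCs, glia and UNs. For NPCs the order changed when the optic lobe epithelium was left out, which gave 2 of 31 cells in Normal A and 62 of 202 in Starvation A. Without it, NPCs were at 23494 CPM in Starvation A and 23134 CPM in Normal B, and Starvation B (16 cells) had too few to enter. Without cells of recurring barcodes as well, they were at 20764 CPM in Starvation A and 21508 CPM in Normal B. By library the lower starvation sums held in neurons and glia. In NPCs with the optic lobe epithelium, library 2 of Starvation A (21996 CPM) exceeded library 1 of Normal B (21745 CPM). In UNs library 2 of Starvation A (13528 CPM) exceeded both libraries of Normal B (12484 and 12297 CPM). In NPCs 31 of 62 nuclear genes lay below in every starvation experiment, against 27.8% of all genes. In glia 31 of 61 did, against 27.8%, and in UNs 20 of 60, against 27.2%. Without cells of recurring barcodes the counts were 37 in NPCs, 23 in glia and 20 in UNs. The shares of all genes were then 29.1%, 27.9% and 27.3%.

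All genes moved in part with them. The median log2 difference in CPM was -0.45 for the nuclear genes of NPCs and -0.31 for all genes, and -0.24 against -0.26 in glia. In neurons it was -0.21 against -0.04 and in UNs -0.51 against -0.18. The fitted changes, which are scaled to the bulk of the genes, had nuclear medians of -0.13 in NPCs, -0.04 in glia and -0.34 in UNs. The UN median was 0.15 without Normal A. The NPC median was -0.031 without Normal C, -0.037 without Starvation B and -0.24 without cells of recurring barcodes, and this last setting took the calls over all genes in NPCs from 21 to 203.

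In glia no mitochondrial gene passed the test, and all 12 tested had an estimated log2 change above 0, with a median of 0.54, against -0.05 for all genes. The summed mitochondrial level overlapped between the conditions, since glia of Normal A (34335 CPM) lay above those of Starvation A (26865 CPM). mt:ND3 was at 418, 421 and 427 CPM in glia of the normal experiments and at 603 and 934 CPM in those of the starvation experiments. The groups did not overlap, and the log2 change was 1.08 (95% interval 0.46 to 1.69, edgeR adjusted p = 0.0997). Over the alternative settings the adjusted p of mt:ND3 ran from 0.0205 to 0.571.

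mt:ND2 was at 339, 378 and 269 CPM in normal and 451 and 637 CPM in starvation glia, with a log2 change of 0.94 (0.30 to 1.59, edgeR adjusted p = 0.135) and no overlap. mt:ND6 (1.00, interval 0.26 to 1.74, edgeR adjusted p = 0.158), mt:ND5 (0.81) and mt:ATPase6 (0.76, interval 0.12 to 1.40, edgeR adjusted p = 0.205) overlapped between the conditions. Of 12 mitochondrial genes, 2 had both starvation experiments above all normal ones in glia, against 10% of all genes. Without cells of recurring barcodes 1 lay above, against 10.3% of all genes, and 1 lay below. Much of the height came from Starvation B, with 61 glial cells, and without it the median was 0.31, against 0.90 without Starvation A.

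Mitochondrial ribosomal RNA was at 45416, 31712 and 26882 CPM in normal and 41462 and 51492 CPM in starvation glia. Its part in the higher values was not tested. In the summed counts of a class, more mitochondria per cell and more transcripts per mitochondrion cannot be told apart.

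Outside glia the mitochondrial genes had fitted medians of 0.15 in neurons, 0.12 in NPCs and -0.34 in UNs. Each turned sign when 1 experiment was left out, to -0.081 in neurons and -0.33 in NPCs without Starvation B and to 0.094 in UNs without Normal A. mt:ND3 in neurons was at 227, 277 and 183 CPM in the normal and at 302 and 366 CPM in the starvation experiments, a log2 change of 0.60 (0.06 to 1.13, edgeR adjusted p = 0.533). It was the 1 of 13 mitochondrial genes with no overlap and higher starvation values in neurons, against 10.5% of all genes. In UNs mt:ATPase8 (-1.72), SdhA (interval -1.92 to -0.07) and ATPsynC (-0.76) had an unadjusted p under 0.05.

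In NPCs ND-AGGG, an accessory subunit of complex I, had the lowest p. It was at 353, 242 and 256 CPM in normal and 112 and 131 CPM in starvation NPCs, without overlap, with a log2 change of -0.86 (-1.50 to -0.22, edgeR adjusted p = 0.282). Over the alternatives its adjusted p ran from 0.0247 to 0.982, and it was chosen after its values were seen.

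**Figure D5:**
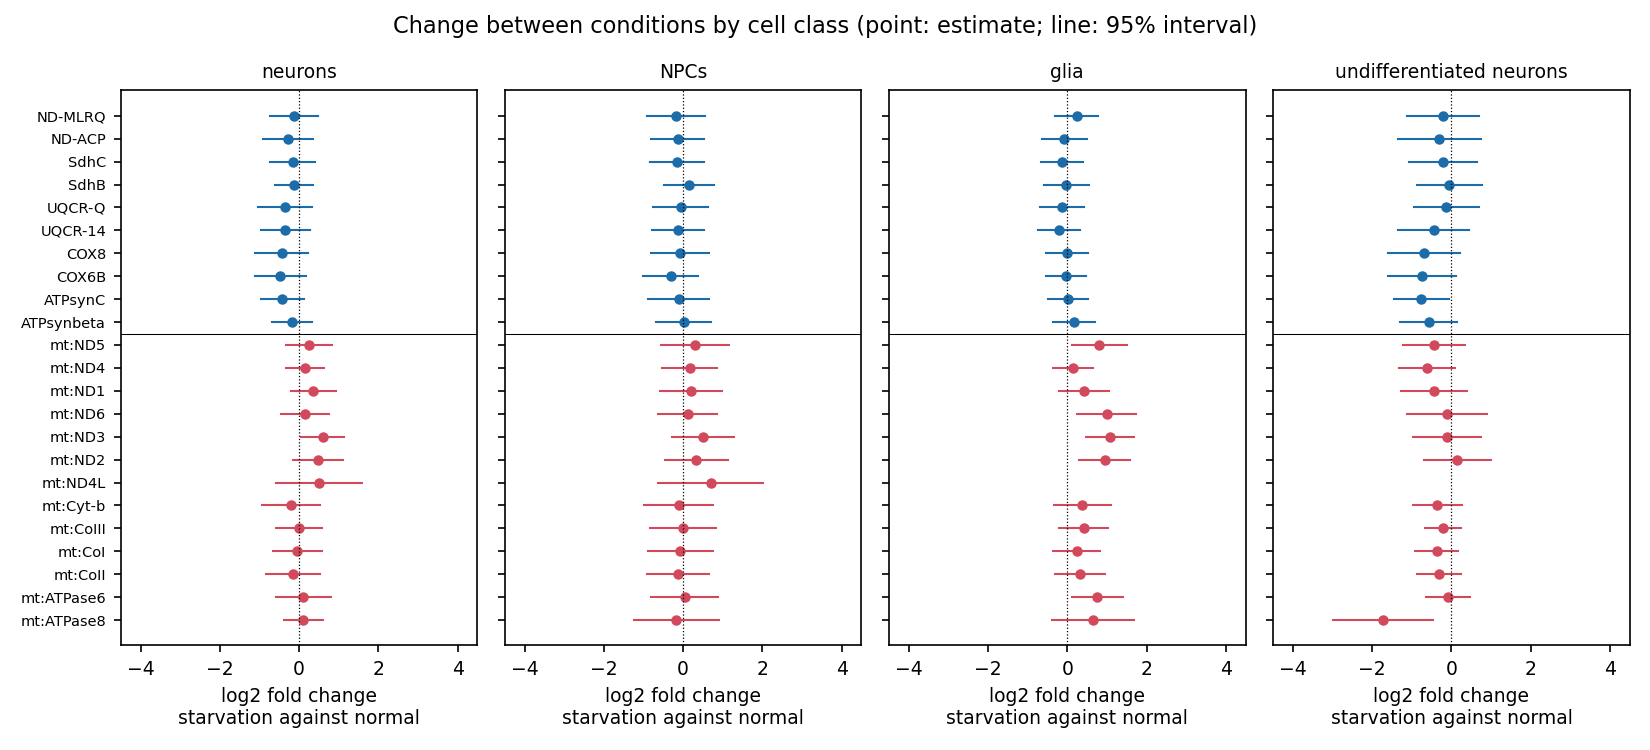
Log2 fold change (starvation against normal) with its 95% interval for the 10 nuclear genes of highest UMI totals in their complexes (blue) and the 13 mitochondrial genes (red) in 4 cell classes. mt:ND4L was too low to be tested in glia and undifferentiated neurons. In glia the mitochondrial estimates lie above 0, with mt:ND3 at 1.08, and no gene passed an adjusted p of 0.05.

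The difference of the condition effect between classes was tested in the same way with the experiment as a block. Between glia and neurons, 0 of the 75 genes and 0% of all 8106 genes passed. Here 6 of the 75 had an unadjusted p under 0.05, among them mt:ND6 (difference 0.90 on the log2 scale), mt:ATPase6 (0.70) and mt:Cyt-b (0.65), each with an adjusted p of 1 by edgeR. The difference was above 0 for 58 of 62 nuclear (median 0.27) and 13 of 13 mitochondrial genes (median 0.52). The median of all genes was 0.034, and their share above 0 is not given. Without Normal B, mt:ATPase6 and mt:Cyt-b passed (edgeR adjusted p = 0.0163 and 0.0349), as did 34 of all 7952 genes in that fit. Between NPCs and neurons 0 of the 75 passed, against 0.0249% of all genes, and none had an unadjusted p under 0.05. The DESeq2 alternative was not run for these differences.

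Other genes of the pathway were read from 6 lists, of electron and metabolite carriers, mitochondrial transcription, regulators of nuclear respiratory genes, assembly factors, the tricarboxylic acid cycle with pyruvate dehydrogenase, and mitochondrial ribosomal proteins. No listed gene passed the edgeR test in any class or difference. Of those tested, 5 of 114 in neurons, 5 of 113 in NPCs, 24 of 96 in glia and 2 of 105 in UNs had an unadjusted p under 0.05. Without the share of all genes beside them, these counts are not read as a change of the lists. DESeq2 called mtSSB, the mitochondrial single-stranded DNA binding protein, in all cells together, where it called 217 of all 9120 genes. In the single classes it called none of the listed genes.

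Mitochondrial ribosomal proteins, which are nuclear genes and translate the mitochondrial transcripts, had median log2 changes of -0.44 in glia (71 genes tested, 18 with an unadjusted p under 0.05), -0.14 in neurons, -0.17 in NPCs and -0.23 in UNs. In glia this median thus had the opposite sign to that of the mitochondrially encoded genes (0.54). The count of 18 likewise has no share of all genes beside it. The 14 tested genes of the tricarboxylic acid cycle and pyruvate dehydrogenase had medians of 0.05 in glia and -0.17 in neurons. Of 16 listed assembly factors, 6 were matched by symbol in the files, too few to describe the list.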

How the data were processed

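Single cell RNA was measured in 4 normal and 3 starvation libraries. Counts were made by the authors with Cell Ranger from a FlyBase genome and annotation, and the deposited values are raw UMI counts per gene of the barcodes called cells, with no scaling. The labels name kit v2, the methods kit v3. The labels do not tie libraries to experiments, so this link was inferred from equal numbers of cells. The 7 libraries as samples are an alternative that needs no link. It counts both libraries of Normal B, and both of Starvation A, as separate replicates, though by the inferred link each pair came from the same experiment.

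Cells with over 200 and under 4500 genes and under 20% mitochondrial UMIs (37 genes) were kept. After log-normalization, clusters were found by Seurat 5.3.0 under R 4.3.3 (2000 variable genes, 31 components, resolution 2, conditions integrated over 30 dimensions, seed 42), giving 43 clusters. A cluster took a name with 3 markers in 25% of its cells, a mean log2 fold of 0.4 and a lead of 0.3. Doublets were not removed: Scrublet (scanpy 1.11.5) called 40 cells (0.428%), too few to have worked, and leaving out the top 5% of scores is an alternative.

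UMIs were summed per class and experiment. edgeR 4.0.16 with limma 3.58.1 (TMM, filterByExpr, Benjamini-Hochberg over all genes) gave the main tests and DESeq2 1.42.0 an alternative; other alternatives changed the scaling, filter, replicates and cells used. The code was tested on simulated data. Nothing shows that the experiments are separate biological collections beyond the methods' wording, and p-values cover the spread between them only. The number in the library titles did not pair samples (correlations of same-numbered deviations 0.07, 0.16 and -0.12). The highest correlation of any pair was 0.35, for Normal C with Starvation B. Normal C with the libraries of Starvation A gave -0.25 and -0.29. A batch shared across conditions was not tested, and the main tests did not model one.

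Genes named were all mitochondrial genes, the 2 with the highest UMI totals of each nuclear complex, and the 3 highest and 3 lowest ratios of NPCs and of glia to neurons. Genes outside this rule are named as such or by their unadjusted p. The genes and lists were chosen with earlier results of these data known. Promoter sequences were not analysed here.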

Additional observations from a re-analysis of the deposited data

Results flagged for a closer look

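Among the 4 normal libraries, the nuclear sum in glia was 36255 CPM in library 1 of Normal B and 40732, 40900 and 41523 CPM in library 2 of Normal B, Normal C and Normal A. The low value stood apart by a gap of 0.85 of the range, above the 95% critical value of Dixon's test for 4 samples. Chance alone flags about 1 in 20 such groups, and 8 groups were looked at. The low library and the library at 40732 CPM belong to the same experiment. Both starvation experiments (34352 and 33991 CPM) lay below it. The cause was not tested.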

How the results depend on the processing

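The count of condition calls among the 75 genes was 0 in every class and difference, and it left 0 under 3 settings, with the cause not tested. The setting with the 7 libraries counts libraries of the same experiment as separate replicates, so its calls do not rest on independent experiments alone. With the 7 libraries as samples and no replicate block it was 1 in NPCs (ND-AGGG, with 122 of 5949 genes called) and 1 in glia (mt:ND3, with 329 of 3535), without a filter on low counts it was 2 in glia (mt:ND3 and mt:ND6, with 304 of 10435), and leaving out 1 experiment at a time gave 0 to 2 in the difference between glia and neurons, with 2 without Normal B (34 of 7952 genes). The muscle nuclear sum was 38779 CPM with cells of any mitochondrial share.

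Several median log2 changes changed sign. In all cells the mitochondrial median ran from -0.13 to 0.25 over left-out experiments. In neurons the nuclear median ran from -0.31 to 0.029 (without Normal C) and the mitochondrial from -0.081 (without Starvation B) to 0.31. In NPCs the mitochondrial median ran from -0.33 (without Starvation B) to 0.40, with -0.028 without Normal C, and was -0.057 with the 7 libraries and no block. The glial nuclear median was -0.12 with cells of any mitochondrial share, 0.028 without Normal B, 0.0025 without Normal C, 0.062 without Starvation A and 0.035 without Starvation B, 0.00072 under RLE scaling, 0.0010 by DESeq2, 0.0080 without recurring barcodes and 0.031 without the top doublet scores. In UNs the nuclear median ran from -0.67 to 0.15 and the mitochondrial from -0.63 to 0.094, both positive without Normal A. In the difference of NPCs against neurons the nuclear median ran from -0.21 to 0.22 and the mitochondrial from -0.35 to 0.071, and the latter was 0.0099 without recurring barcodes.

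With the number in the title as replicate block, the nuclear median was 0.00076 in neurons and 0.0080 in NPCs, the mitochondrial median in NPCs -0.14, and 0 of the 75 genes were called in each class. Normal C was the only library numbered 4, so under this block it did not bear on the estimated change. The setting is thus close to leaving out Normal C. Over all genes, edgeR called 0, 0, 21, 1 and 0 in all cells, neurons, NPCs, glia and UNs, DESeq2 217, 99, 27, 71 and 9, the 7 libraries 433, 161, 122, 329 and 72, and the block 55, 42, 31, 97 and 49.

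With 5 experiments, the 95% intervals of nuclear genes in neurons had a median full width of 1.25 on the log2 scale.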
